A study of Homo sapiens with 6 samples.

Results

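The genes described here are 9 cytosolic heat shock proteins and their partner chaperones (HSPA1A, HSPA1B, HSPA8, HSPH1, DNAJB1, HSP90AA1, HSP90AB1, HSPB1 and BAG3) and HSF1, the transcription factor that controls them. They were taken by gene symbol from the deposited table, which held a row for each of the 10, of 17335 genes in all. The study measured RNA by sequencing in A549, an established human line from a lung adenocarcinoma, treated with DMSO, the solvent, or with BRQ, with 3 libraries per group. The labels do not write BRQ out in full. It is read here as the compound in the series title, which blocks DHODH, a mitochondrial enzyme needed to make pyrimidines de novo. No dose or exposure time stands in the labels, all 6 samples are the same line grown in the same medium at 37 °C, and no label names a heat treatment.

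Heat shock proteins are chaperones that hold unfolded proteins and help them fold. HSP70 proteins bind short exposed stretches of a client, J-domain proteins such as DNAJB1 bring the client and start the HSP70 ATPase cycle, HSP110 and BAG proteins release the nucleotide, and HSP90 proteins finish the folding of kinases, hormone receptors and other clients. HSF1 is kept inactive by binding to chaperones. When unfolded proteins draw the chaperones away, it forms trimers and binds heat shock elements, which are arrays of inverted GAA units in the promoters of these genes. The HSF1 protein is controlled mostly after translation, so its own RNA level is not a readout of its activity.

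The heat shock genes were higher in BRQ and HSF1 was lower. Of the 10 genes, 9 rose, beside 44.3% of the 12258 genes tested, and 1 fell, beside 35.4%. Under quantile normalization the 10 genes gave the same counts, whereas over all tested genes the balance turned, with 4713 higher and 4959 lower instead of 5425 and 4343. The test was limma on log2(FPKM + 0.5) with Benjamini-Hochberg adjustment over all tested genes and a threshold of 0.05. FPKM counts sequenced fragments relative to the length of a gene and the size of a library. The rise was at least 1.5-fold for 6 of the 10 genes (24.3% of tested genes) and at least 2-fold for 4 of them (13.9%), namely HSPA1A, HSPA1B, HSP90AA1 and HSPB1. The median log2 fold change of the 10 genes was 0.66, beside 0.07 for all tested genes. In all 10 the values of the 3 BRQ libraries lay wholly apart from those of the 3 DMSO libraries, as they did for 44.9% of tested genes in the upward and 36.5% in the downward direction. All 10 passed the filter on low values in each group by itself. Changes in RNA per cell and in the share of cells that make it cannot be told apart in bulk RNA.

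**Figure D1:**
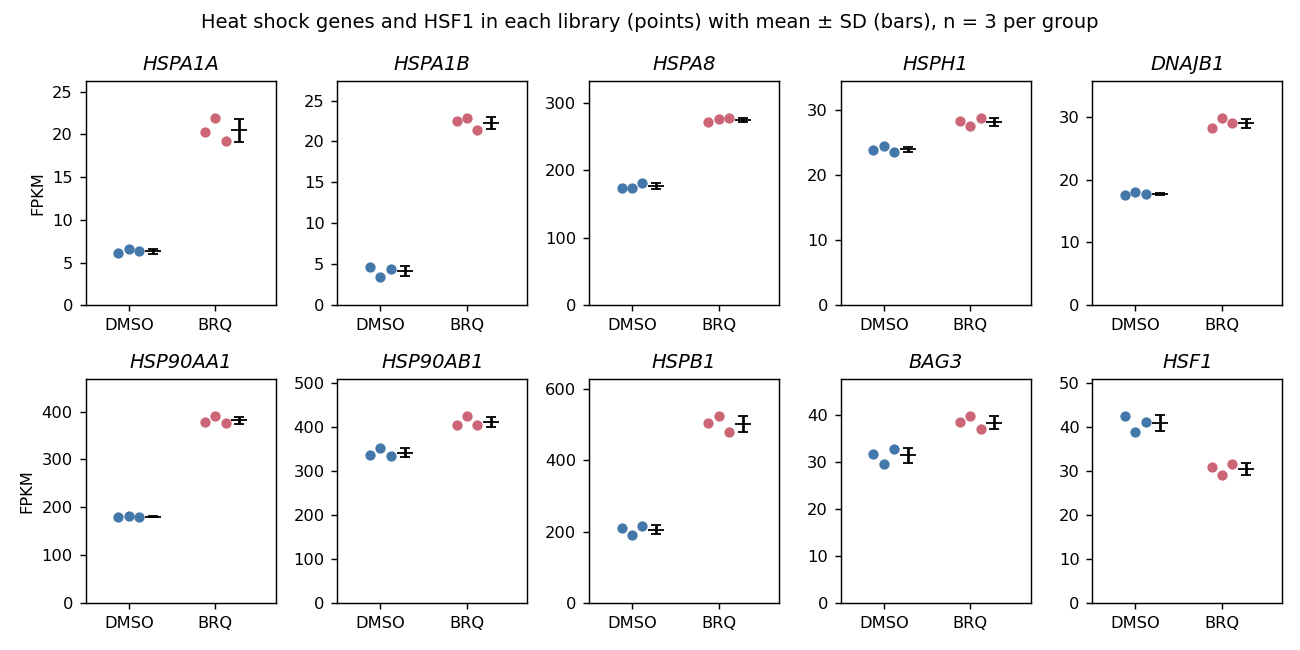
FPKM (y axes, starting at 0) of the 9 heat shock genes and HSF1 in each of 3 DMSO and 3 BRQ libraries (points), with the mean and SD beside them (bars). In 9 panels all BRQ points lie above the DMSO points, and in the HSF1 panel they lie below.

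The promoters are shown because HSF1 acts through letters that can be searched for in them. RefSeq promoter windows of GRCh38.p14, which run from 250 bases before to 50 bases after a gene start, were found for 9 of the 10 genes (14 windows, since some genes have several starts). Each was searched for GAANNTTC and TTCNNGAA, which read the same on both strands, and for the 13-letter heat shock element, in which one more inverted unit follows after 2 free bases. Its 2 possible forms are each other's reverse complement, and each contains both 8-letter forms. Of the 9 genes, 7 held an 8-letter form in at least 1 window and 3 (HSPA8, HSP90AA1 and HSP90AB1) held a 13-letter form. By window these were 8 of 14 and 3 of 14, whereas 13.5% of all 35116 windows in the table held an 8-letter form and 0.490% a 13-letter form. Such elements are known from the promoters of these genes, so this contrast describes their sequences and says nothing about BRQ. The windows of HSPA1A (chr6:31815293-31815592, plus strand) and HSPA1B (chr6:31827488-31827787, plus strand) are printed for the 2 genes with the largest rise. Those of HSP90AA1 (chr14:102086995-102087294, minus strand, the second of its 2 starts), HSP90AB1 (chr6:44247693-44247992, plus strand, the third of its 3 starts) and HSPA8 (chr11:123062087-123062386, minus strand) are printed because they hold the long form. Capitals mark the matched letters.
HSPA1A: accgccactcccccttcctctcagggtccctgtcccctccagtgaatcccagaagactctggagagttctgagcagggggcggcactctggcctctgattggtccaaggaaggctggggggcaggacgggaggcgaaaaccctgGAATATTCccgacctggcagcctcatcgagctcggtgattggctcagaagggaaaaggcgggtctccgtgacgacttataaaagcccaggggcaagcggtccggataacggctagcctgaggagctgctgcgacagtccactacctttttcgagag
HSPA1B: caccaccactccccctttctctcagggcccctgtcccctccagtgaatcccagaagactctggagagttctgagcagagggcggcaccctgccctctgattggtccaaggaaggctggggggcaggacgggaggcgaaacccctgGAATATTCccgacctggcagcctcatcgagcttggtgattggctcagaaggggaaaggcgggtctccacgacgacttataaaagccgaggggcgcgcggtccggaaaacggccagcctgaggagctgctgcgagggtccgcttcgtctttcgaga
HSP90AA1: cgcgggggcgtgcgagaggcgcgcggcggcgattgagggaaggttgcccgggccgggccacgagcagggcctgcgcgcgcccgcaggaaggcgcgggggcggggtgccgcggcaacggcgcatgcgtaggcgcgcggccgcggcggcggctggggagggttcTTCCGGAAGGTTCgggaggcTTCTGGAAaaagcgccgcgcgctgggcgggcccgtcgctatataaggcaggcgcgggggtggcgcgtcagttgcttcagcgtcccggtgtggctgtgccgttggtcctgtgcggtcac
HSP90AB1: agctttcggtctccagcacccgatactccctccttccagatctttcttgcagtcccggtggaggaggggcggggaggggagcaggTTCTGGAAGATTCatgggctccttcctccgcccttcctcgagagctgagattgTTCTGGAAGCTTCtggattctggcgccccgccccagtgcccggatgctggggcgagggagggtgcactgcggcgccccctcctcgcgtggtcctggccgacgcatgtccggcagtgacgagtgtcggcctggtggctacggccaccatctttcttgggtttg
HSPA8: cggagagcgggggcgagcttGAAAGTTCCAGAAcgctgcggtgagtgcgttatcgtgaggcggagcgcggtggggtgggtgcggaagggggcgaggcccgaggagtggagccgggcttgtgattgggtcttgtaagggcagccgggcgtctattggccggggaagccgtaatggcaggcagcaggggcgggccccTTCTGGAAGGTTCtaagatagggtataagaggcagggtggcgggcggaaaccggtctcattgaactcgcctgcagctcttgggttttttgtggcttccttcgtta
The windows of HSPA1A and HSPA1B were identical at 92.0% of aligned positions, and their single match began 106 and 105 bases before the start. In HSP90AA1 the 13-letter match began 88 bases before the start and a further 8-letter match began 68 bases before it. HSP90AB1 had 13-letter matches from 165 and 112 bases before its start, and HSPA8 from 230 and 55 bases before its start. HSPB1 (chromosome 7) had an 8-letter match 182 bases before its start, and the second of 3 DNAJB1 starts (chromosome 19) had matches 77 and 47 bases before it. At the third DNAJB1 start an 8-letter match began 1 base after it. The windows of HSPH1 and BAG3 held none of these letters. Among genes with a long match, HSP90AA1 was 2.12-fold, HSPA8 1.56-fold and HSP90AB1 1.21-fold higher in BRQ. Among those with short matches only, HSPA1B was 5.31-fold, HSPA1A 3.24-fold, HSPB1 2.45-fold and DNAJB1 1.63-fold higher. HSPH1 and BAG3, without a match, were 1.17-fold and 1.22-fold higher. Whether matches go with the size of the rise was not tested. A match is a run of letters and not a measured binding site.

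**Figure D2:**
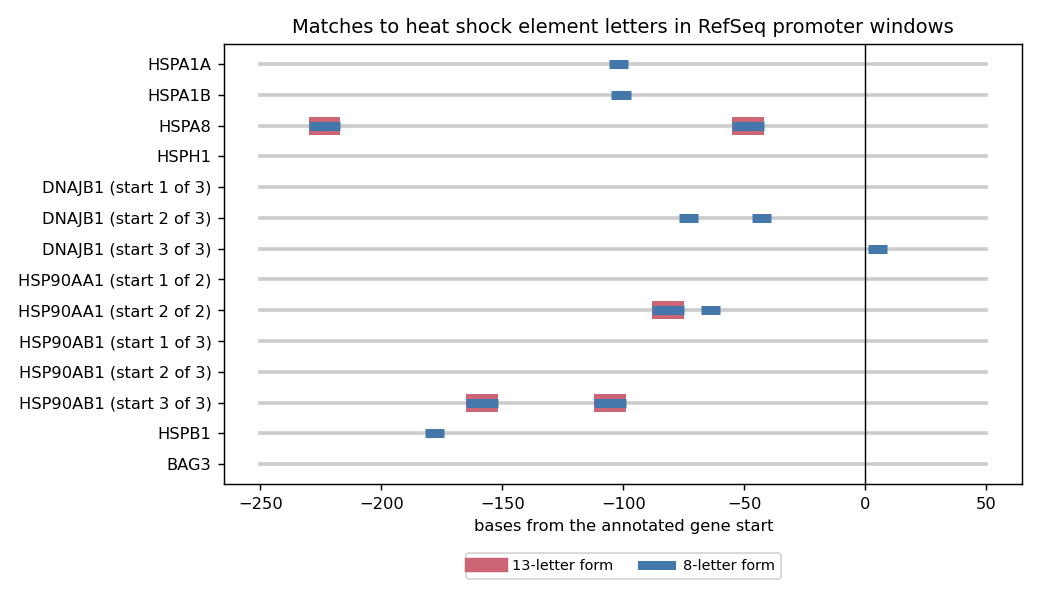
Positions of the 8-letter (blue) and 13-letter (red) heat shock element forms in the promoter windows of 9 genes, in bases from the annotated start (x axis; the vertical line is the start). HSPA8 and HSP90AB1 each show 2 long matches, HSP90AA1 shows 1, and HSPH1 and BAG3 show none.

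The stress-inducible HSP70 genes rose most. HSPA1A and HSPA1B are intronless neighbours on chromosome 6 (31815543 to 31817942 and 31827738 to 31830254, plus strand, GRCh38) that code for nearly the same inducible HSP70 protein. HSPA1B had 4.68, 3.47 and 4.41 FPKM in DMSO and 22.5, 22.8 and 21.4 FPKM in BRQ. The BRQ libraries were close to each other, and DMSO replicate 2 was the lowest of the 6. The mean rose from 4.19 ± 0.633 to 22.2 ± 0.719 FPKM (SD, n = 3), which is 5.31-fold (2.29 on the log2 scale with SE 0.09, limma adjusted p = 5.75e-09). It ranked at 119 from the top by log2 fold change among 12258 tested genes. HSPA1A had 6.06, 6.61 and 6.30 FPKM in DMSO and 20.3, 21.9 and 19.3 FPKM in BRQ. Its lowest BRQ library thus lay well above its highest DMSO library, and the mean was 3.24-fold higher (1.62 on the log2 scale with SE 0.06, limma adjusted p = 3.63e-09).

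The near-identity of the pair bears on these levels. Of all runs of 100 bases in the main GENCODE transcript of HSPA1A, 69.9% also occur letter for letter in that of HSPA1B, and 68.8% in the other direction. The sources used here do not say how reads that match both copies were counted, so the division between the copies and their level beside other genes are uncertain. The reads behind them, worked back from the FPKM steps, were 404, 470 and 431 for HSPA1A in DMSO and 1604, 1690 and 1613 in BRQ. For HSPA1B they were 327, 259 and 317 in DMSO and 1860, 1849 and 1883 in BRQ. Added up as 1 row in the same fit, the pair had 10.7, 10.1 and 10.7 FPKM in DMSO and 42.8, 44.7 and 40.7 FPKM in BRQ. The sum was 4.07-fold higher in BRQ (1.97 on the log2 scale with SE 0.05, limma adjusted p = 2.53e-10). The rise therefore did not rest on how reads were divided between the copies. Within a library, HSPA1B over HSPA1A was 0.772, 0.525 and 0.701 in DMSO and 1.11, 1.04 and 1.11 in BRQ. All 3 BRQ ratios lay above the DMSO ratios, and the DMSO ratios varied widely among themselves. In GENCODE, HSPA1B overlaps AL671762.1, a processed transcript on the same strand. The part of AL671762.1 in the HSPA1B value and in these ratios was not tested.

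HSPA8, the constitutive HSP70 of the cytosol on chromosome 11 (123057489 to 123062462, minus strand), started high and rose less. Its values were 173.7, 174 and 181 FPKM in DMSO and 271, 276 and 277 FPKM in BRQ. The libraries of each group were tightly placed and the groups far apart. The mean was 1.56-fold higher in BRQ (0.64 on the log2 scale with SE 0.03, limma adjusted p = 1.15e-08). In absolute FPKM it gained 98.3, more than the 32.2 gained by the inducible pair. HSPA8 stood at 16.2, 17.3 and 16.9 times the summed inducible pair in the DMSO libraries and at 6.35, 6.17 and 6.81 times in the BRQ libraries. The level of the pair beside other genes is uncertain, as said above. The comparison of gains and the size of these ratios therefore hold only for reads as they were counted. The HSPA8 locus holds 3 snoRNA genes within its span, and GENCODE names 17 pseudogenes after it, so reads could also match other copies. It also names 2 after HSPB1 and 1 after DNAJB1. Only names made of the gene symbol, P and a number were counted. Pseudogenes named otherwise, of these or the other genes, are therefore left out.

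The 3 genes that serve the HSP70 cycle rose by different amounts. DNAJB1, the J-domain protein that loads clients onto inducible HSP70, had 17.6, 18.0 and 17.6 FPKM in DMSO and 28.2, 29.7 and 28.9 FPKM in BRQ. It was 1.63-fold higher (0.69 on the log2 scale with SE 0.04, limma adjusted p = 6.23e-08), a change close to that of HSPA8. The ratio of HSPA8 to DNAJB1 was 9.87, 9.71 and 10.3 in DMSO and 9.61, 9.28 and 9.58 in BRQ, so that the difference in ratio was small although the groups did not overlap. DNAJB1 (chromosome 19, 14514769 to 14560391, minus strand) shares its span with TECR, a coding gene on the other strand, which rose from 16.0 ± 0.178 to 25.9 ± 0.529 FPKM. The sources used here do not give the strand setting of the counting, and the part of TECR in the DNAJB1 value was not tested.

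HSPH1, the HSP110 protein that exchanges the nucleotide of HSP70, had 23.9, 24.4 and 23.6 FPKM in DMSO and 28.2, 27.4 and 28.7 FPKM in BRQ. Its rise of 17.4% was the smallest of the 9, yet larger than the spread between libraries (log2 fold change 0.23, SE 0.04, limma adjusted p = 0.000229). BAG3, a cochaperone that leads HSP70 clients to selective autophagy, had 31.8, 29.6 and 32.8 FPKM in DMSO and 38.5, 39.8 and 36.9 FPKM in BRQ. It rose by 22.3% (log2 fold change 0.29, SE 0.05, limma adjusted p = 0.000211). Of all tested genes, 39.8% had a larger log2 fold change than HSPH1 and 36.2% a larger one than BAG3. HSPH1 lies on chromosome 13 (31134973 to 31162388, minus strand) and BAG3 on chromosome 10 (119651380 to 119677819, plus strand), and neither overlaps another gene in GENCODE.

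**Figure D3:**
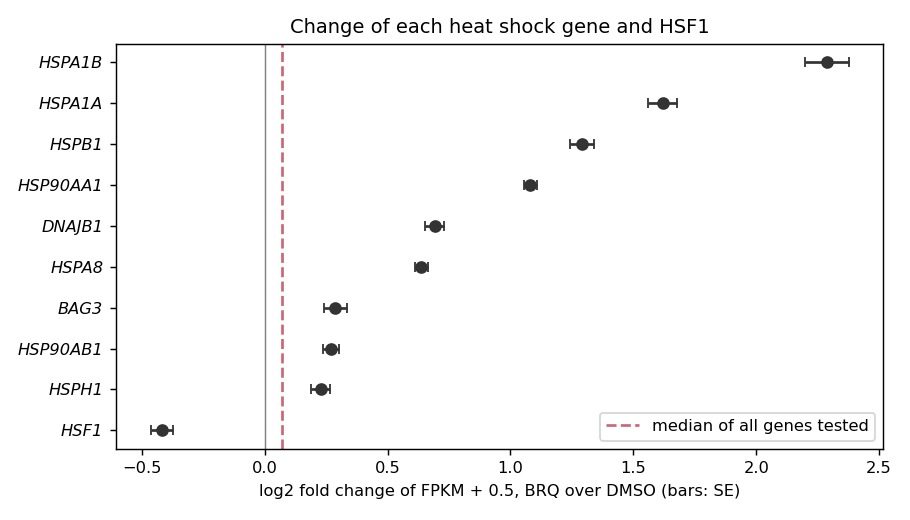
Log2 fold change of FPKM + 0.5 (x axis, BRQ over DMSO) with its SE (bars) for each gene, ordered by size. The values run from -0.42 for HSF1 to 2.29 for HSPA1B, and the dashed line marks the median of all tested genes, 0.07.

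The cytosolic HSP90 genes parted. HSP90AA1, the stress-inducible isoform on chromosome 14 (102080742 to 102139749, minus strand), had 179.0, 182 and 179.7 FPKM in DMSO and 378, 391 and 377 FPKM in BRQ. It was 2.12-fold higher, with a larger rise in 8.96% of tested genes (log2 fold change 1.08, SE 0.03, limma adjusted p = 2.82e-10). HSP90AB1, the constitutive isoform on chromosome 6 (44246194 to 44253883, plus strand), had 337, 353 and 334 FPKM in DMSO and 404, 425 and 406 FPKM in BRQ. It rose by 20.6% (0.27 on the log2 scale with SE 0.03, limma adjusted p = 1.93e-05). The ratio of HSP90AA1 to HSP90AB1 was 0.531, 0.516 and 0.538 in DMSO and 0.935, 0.919 and 0.928 in BRQ. By FPKM, the inducible isoform thus went from well below the constitutive one to nearly its level in each BRQ library. The size of the ratio depends on the gene lengths behind FPKM, 3936 bases for HSP90AA1 and 2856 for HSP90AB1. By reads, HSP90AA1 was below HSP90AB1 in DMSO (19582, 21242 and 20182 against 26761, 29884 and 27198). In BRQ it was above (48964, 49499 and 51735 against 37991, 39092 and 40455). The FPKM ratio within a library does not depend on scaling between libraries, and no test was run on it. HSP90AA1 shares part of its longest span with WDR20 on the other strand, which fell from 4.82 ± 0.202 to 3.95 ± 0.230 FPKM, a level far below that of HSP90AA1.

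**Figure D4:**
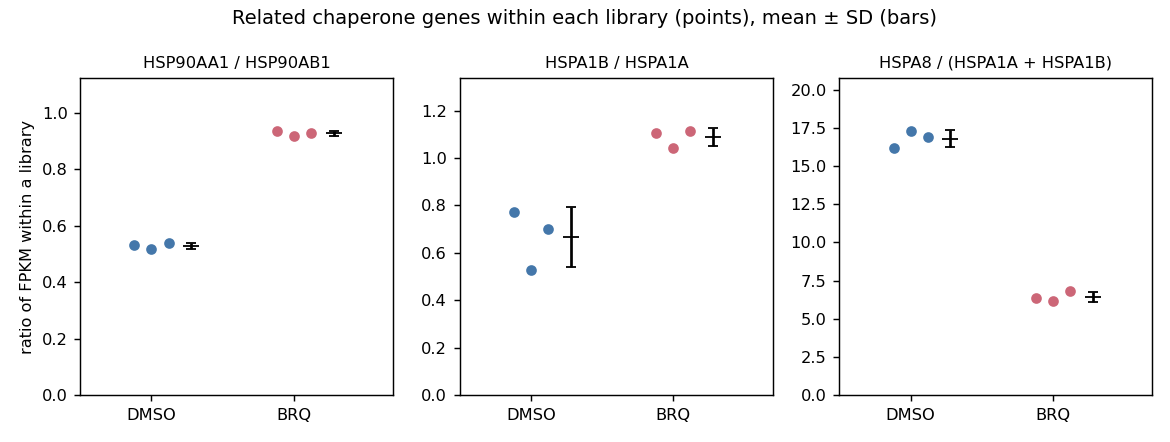
Ratio of FPKM between related chaperone genes within each library (y axes, starting at 0), with points for the 3 DMSO and 3 BRQ libraries and bars for mean and SD. HSP90AA1 over HSP90AB1 and HSPA1B over HSPA1A are higher in each BRQ library, and HSPA8 over the inducible HSP70 pair is lower.

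HSPB1, the small heat shock protein HSP27 that holds unfolded clients without ATP, added more FPKM than any other of the 9 genes. It had 210.2, 191 and 215 FPKM in DMSO and 505, 524 and 479 FPKM in BRQ, with the lowest DMSO value in replicate 2. The mean rose from 205 ± 13.1 to 503 ± 22.9 FPKM, which is 2.45-fold (1.29 on the log2 scale with SE 0.05, limma adjusted p = 4.18e-09). HSPB1 lies on chromosome 7 (76302673 to 76304292, plus strand), and its gain made up 41.2% of the summed FPKM gained by the 9 genes. HSP90AA1 made up a further 27.9%, HSPA8 13.6% and HSP90AB1 9.75%. The 9 genes together held 984, 982 and 995 FPKM in DMSO and 1697, 1758 and 1673 FPKM in BRQ, a sum 1.73-fold higher.

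HSF1, on chromosome 8, was the one gene of the 10 that fell. It had 42.5, 38.9 and 41.3 FPKM in DMSO and 30.8, 29.0 and 31.6 FPKM in BRQ, so that each BRQ library lay below each DMSO library. The mean fell from 40.9 ± 1.83 to 30.5 ± 1.33 FPKM (log2 fold change -0.42, SE 0.05, limma adjusted p = 1.10e-05), and 21.5% of tested genes had a lower log2 fold change. HSF1 shares its span with DGAT1, a coding gene on the other strand, which rose from 3.50 ± 0.103 to 6.16 ± 0.691 FPKM, against the direction of HSF1. Its reads were 2670, 2607 and 2660 in DMSO and 2293, 2110 and 2492 in BRQ.

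The order of the levels changed with treatment. In DMSO, HSP90AB1 was highest, followed by HSPB1, then HSP90AA1 and HSPA8, whose libraries overlapped. HSF1, BAG3, HSPH1 and DNAJB1 followed between 42.5 and 17.6 FPKM, and the inducible HSP70 pair stood lowest. In BRQ, HSPB1 was highest and HSP90AB1, HSP90AA1 and HSPA8 followed without overlap, and then BAG3. HSF1 and DNAJB1 overlapped, as did DNAJB1 and HSPH1, and HSPA1B and HSPA1A, which were still the lowest. The place of the inducible pair in both orders holds only for reads as counted, since its level beside other genes is uncertain. Both orders are by FPKM and so depend on the gene lengths used.

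Related chaperones outside the 10 genes moved in both directions. Counts in these lists stand beside the 44.3% of all tested genes that rose and the 35.4% that fell, and none was tested against them. Of 8 other tested HSP70 family genes, 6 rose and 2 fell. The DMSO libraries of HSPA1L and HSPA6, both among those that rose, did not meet the filter on low values by themselves. Under quantile normalization 4 of the 8 rose and 2 fell, and without BRQ replicate 3, when 7 were tested, 4 rose and 2 fell. HSPA2, an HSP70 best known from testis, rose from 6.74 ± 0.284 to 28.9 ± 0.462 FPKM (log2 fold change 2.02), and HSPA1L, which starts next to HSPA1A on the other strand, rose from 0.561 ± 0.0852 to 2.45 ± 0.298 FPKM (1.47). HSPA6, a strictly heat-inducible HSP70, had 0.306, 0.143 and 0.149 FPKM in DMSO and 0.516, 0.739 and 0.791 FPKM in BRQ (log2 fold change 0.76, limma adjusted p = 0.000524). It remained under 1 FPKM in every library. HSPA6 could be tested only because it was higher in BRQ. HSPA1L had 0.651, 0.550 and 0.482 FPKM in DMSO, near the filter, and its place in the test needed its BRQ libraries too. The HSPA6 call ended under quantile normalization (adjusted p = 0.280; 0.18 on the log2 scale). HSPA4, an HSP110 relative, fell from 95.0 ± 1.98 to 56.1 ± 0.464 FPKM (-0.76), opposite to its relative HSPH1.

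Of 3 other tested genes listed as small heat shock proteins all 3 rose. CRYAB, or alpha-B crystallin, went from 1.28 ± 0.345 to 4.18 ± 1.001 FPKM (log2 fold change 1.40). HSPB8, the partner of BAG3, went from 24.6 ± 0.932 to 38.3 ± 1.66 FPKM (0.63). HSPB11 stands in the list by its symbol, which does not settle that it is a member of the family, and rose by 0.76 on the log2 scale. A further 5 small heat shock genes were below the filter. Among 5 other BAG genes none rose and 2 fell, BAG1 (-0.45) and BAG6 (-0.26), whereas BAG3 rose. Of 14 other J-domain genes 4 rose and 8 fell, with a median log2 fold change of -0.19. DNAJA1, a farnesylated cytosolic J-domain protein, rose from 111 ± 4.53 to 246 ± 7.50 FPKM (1.14) and DNAJB4, a close relative of DNAJB1, rose by 0.83, while DNAJB5 (-1.49) and DNAJC13 (-1.11), an endosomal protein, fell.

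Of 19 cochaperones of HSP90 and HSP70, 9 rose, 6 fell and 4 were not called, so that the 47.4% that rose lay near the 44.3% of all tested genes. Under median-of-ratios scaling 7 rose and 7 fell. CACYBP (log2 fold change 0.63), AHSA1, the activator of the HSP90 ATPase (0.51), ST13 (0.35) and UNC45A (0.28) rose. Of 14 subunits of the CCT chaperonin and prefoldin, which fold actin and tubulin, 10 rose and 3 fell by small amounts, from -0.33 for PFDN2 to 0.51 for PFDN4, with VBP1 at 0.44 and CCT6A at 0.31. Under quantile normalization these counts were 8 and 4. Of 7 chaperones of the endoplasmic reticulum and mitochondria 4 rose and 3 fell. HSPD1 and HSPE1, the mitochondrial chaperonin and its lid, rose by 0.70 and 0.77, and HSPA9 and TRAP1, the mitochondrial HSP70 and HSP90, fell by 0.55 and 0.54 on the log2 scale.

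Of 13 tested genes that act on HSF1 or belong to its family, 3 rose, 6 fell and 4 were not called. Their median was -0.01 on the log2 scale. HSBP1, a small protein that binds HSF1 trimers, rose (log2 fold change 0.59), as did DAXX (0.48) and SSBP1 (0.47), and the mitotic kinase PLK1 fell (-0.65). Of 24 other tested genes that HSF1 is known to drive, 19 rose (79.2%, beside 44.3% of all tested genes), 4 fell and 1 was not called. Many of these genes were already counted in the lists above, among them HSPA4, HSPA6, HSPD1, DNAJA1, STIP1, CRYAB and HSPB8. The list is therefore not a separate set beside those lists. HSPA6 is among the 19, and its place in the test rests on its BRQ values. Their median was 0.57 on the log2 scale, beside 0.07 for all tested genes. P4HA1, a collagen prolyl hydroxylase (1.60), IER5, an HSF1 cofactor (1.49), CRYAB (1.40) and RGS2, a regulator of G protein signalling (1.17), changed most. P4HA1 and RGS2 also belong to other responses, so this list is not exclusive to HSF1. Under quantile normalization 17 rose and 5 fell, with a median of 0.37.

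**Figure D5:**
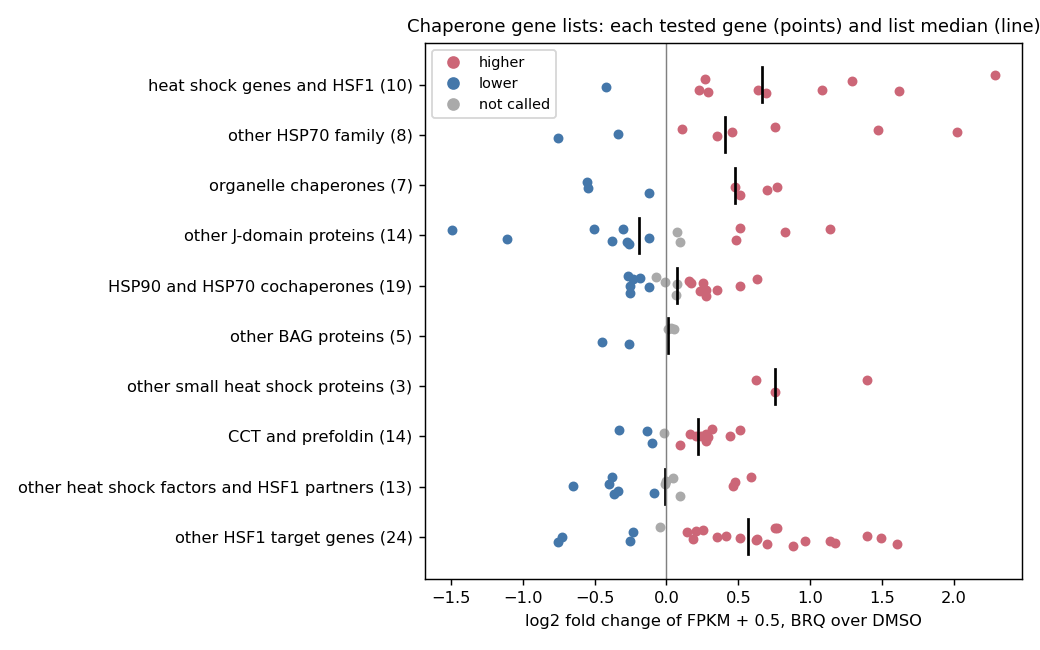
Log2 fold change of FPKM + 0.5 (x axis, BRQ over DMSO) of each tested gene (points) in 10 gene lists (rows, number tested in brackets), with colour for the call and a black line at the list median. The heat shock genes and the other HSF1 targets have medians of 0.66 and 0.57, the other J-domain proteins -0.19. Genes that belong to several lists appear in each of their rows.

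Genes with a profile nearest to that of 2 of the chaperones were named by the distance between their centred log2 values over the 6 libraries, among 12149 tested genes outside the lists. Nearest to HSPA1B were CD22 (distance 0.160), TM7SF2 (0.166), SLC29A3 (0.193), TUBB4A (0.221) and ADSS1 (0.225). Their levels in DMSO ran from 0.522 FPKM for ADSS1 to 2.27 FPKM for SLC29A3, below those of HSPA1B. Nearest to HSPA8 were SNX18 (0.0400), ELL2 (0.0400), TMEM179B (0.0520), MFSD1 (0.0551) and DLD (0.0563). With 2 groups of 3 libraries, such a distance mostly reflects the size of the difference between the groups.

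The libraries held 27789225 to 34908895 reads in the totals by which FPKM was scaled, those of DMSO being the smaller. The members rested on 259 reads (HSPA1B, DMSO replicate 2) to 51735 reads (HSP90AA1, BRQ replicate 3). Log2 values of tested genes correlated more closely within groups (0.996 to 0.997) than between them (0.919 to 0.927). Among markers of the cell type, the epithelial keratins KRT7, KRT8 and KRT18 stood at 196 to 696 FPKM, and the surfactant genes SFTPB, SFTPC and SFTPA1 of alveolar type 2 cells at no more than 0.130 FPKM. The epithelial genes moved with treatment. KRT7 fell from 577 ± 2.24 to 355 ± 11.8 FPKM, while KRT8 rose from 199 ± 2.62 to 350.5 ± 13.9 FPKM and KRT18 from 453 ± 5.01 to 662 ± 29.1 FPKM. EPCAM rose 5.06-fold, from 0.737 ± 0.227 to 3.73 ± 0.798 FPKM, and CDH1 rose 3.15-fold, from 1.83 ± 0.179 to 5.77 ± 0.471 FPKM. The leukocyte marker PTPRC and the endothelial marker PECAM1 did not exceed 0.0382 FPKM. The fibroblast genes COL1A1 (1.15 to 1.68 FPKM in DMSO and 3.81 to 3.99 in BRQ) and PDGFRB (up to 0.0183 and up to 0.420 FPKM) were low and were higher in BRQ. The part of these markers in the results was not tested.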

How the data were processed

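Total RNA from A549 cells was taken up in TRIzol and made into Illumina libraries, per the labels' protocols. Tools named in the submitters' processing notes are fastp and HTSeq, without versions, and the build is hg38. The sources used here do not give the aligner, gene annotation or strand setting. One deposited table holds FPKM values that the authors computed for 17335 genes in 6 columns, and each column matched 1 sample title.

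For the main test limma 3.58.1 (R 4.3.3) was run on log2(FPKM + 0.5), with treatment alone in the model and eBayes with an intensity trend. Fold changes of low genes are understated by the pseudocount. The 12258 genes tested reached 0.5 FPKM in 3 or more libraries, and two-sided p-values were adjusted by Benjamini-Hochberg. Ratios are of mean FPKM. The fit was also run on simulated data in which only a small share of genes changed. That run does not cover data such as these, in which most genes were called. Whole reads, within 0.01 of a read, were worked back for 100% of genes from the steps between FPKM values, which also gave the library totals (27789225 to 34908895). Intervals of counting error are not given, since counting noise did not account for the differences among replicates (mean chi-square of 3.92 to 6.11 per gene). The labels do not say whether each library had its own culture, and p-values therefore cover only the spread among these libraries, which could be technical.

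The 10 genes and the gene lists were chosen with earlier results of these data known. Named genes were all 10, up to 4 called genes per list with the largest change, and the 5 nearest in profile to HSPA1B and to HSPA8. TECR, WDR20, DGAT1, STIP1, CHORDC1, SERPINH1 and ZFAND2A were named after their values were seen. Coordinates and promoters are RefSeq's for GRCh38.p14; strands, overlaps and transcripts are from GENCODE release 29. The alternatives tried were other pseudocounts (0.1 and 1), a filter on a mean of at least 1 FPKM, no filter, median-of-ratios scaling, quantile normalization, array weights, no trend, a replicate block, limma-voom on the recovered reads, and leaving out each library. The rest was done in Python 3.11.15 (numpy 2.4.6, matplotlib 3.10.9, pandas 2.3.3).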

Additional observations from a re-analysis of the deposited data

How the results depend on the processing

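Under each of the 16 alternatives, 9 of the 10 genes were called higher and HSF1 lower. Log2 fold changes ran from 2.17 to 2.42 for HSPA1B, 1.55 to 1.69 for HSPA1A, 1.18 to 1.33 for HSPB1, 1.01 to 1.09 for HSP90AA1 and -0.49 to -0.38 for HSF1. The smaller rises kept adjusted p-values of at most 0.00226 (HSPH1), 0.00122 (HSP90AB1) and 0.00237 (BAG3). Over all tested genes, 4690 to 6571 were called higher and 4061 to 4959 lower, beside 5425 and 4343. Quantile normalization turned the balance, with 4713 higher and 4959 lower and a median log2 fold change of -0.02 beside 0.07. Of 828 values for the 52 named genes, 827 kept their direction and their side of the threshold. The exception was HSPA6 under quantile normalization (0.18, adjusted p = 0.280), and HSPA6 had no value under some alternatives because it fell below their filter. Without 1 library at a time there were 4690 to 5284 genes called higher and 4061 to 4206 lower. With the replicate number as a block, 5351 genes were higher and 4278 lower, and no named gene changed its call. Deviations of same-numbered libraries correlated at -0.04 to -0.01, so no shared deviation was seen. Pairs with little effect in common would give such values too, so whether the numbers pair the samples is not known. FPKM is relative to each library's total, so a change in total RNA per cell cannot be seen.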

Other observations

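In the list of other HSF1 targets, STIP1 (-0.23) and CHORDC1 (-0.26), cochaperones of HSP90, fell. The promoter window of CHORDC1 holds matches to the 13-letter heat shock element. In this list 5 genes held such a match in a window, and CHORDC1 was the only one of them that fell. DNAJA1 (1.14), HSPA6 (0.76), HSPD1 (0.70) and SERPINH1 (0.42) rose. ZFAND2A, an arsenite- and heat-inducible gene, rose from 5.99 ± 0.604 to 12.1 ± 0.621 FPKM.

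Letters of the element were also looked up in the promoter windows of other genes. Of 45 tested genes outside the 10 with a 13-letter form in a promoter window, 46.7% rose and 33.3% fell, with a median log2 fold change of 0.09. Of 1355 with an 8-letter form, 41.8% rose and 37.0% fell, with a median of 0.05. Of 10049 tested genes with any window in the table, 43.6% rose and 35.6% fell, with a median of 0.06. These are counts without a test.

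HSPD1 and HSPE1, which in human share a divergent promoter, rose by similar amounts on the log2 scale (0.70 and 0.77) but differed in level, with 188 ± 7.12 and 14.1 ± 0.626 FPKM in DMSO. HSPE1 rested on 207 to 537 reads. The sources used here do not say how reads that match several genes were counted, so the difference in level is uncertain.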
